A study of Mus musculus with 6 samples.

Results

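Passenger strands, written with a star in the naming used on this array, were measured in mouse liver and liver tumours beside the guide strands of the same hairpins. All mouse probes whose name ends with a star were taken except miR-149*, miR-1247* and miR-128-2*, which gave 326 star probes of 1096 mouse probes. Of these, 317 could be set beside a probe of the same name without the star, and these pairs used 295 different guide probes because 22 guides serve 2 star probes each. Of the 9 star probes with no guide probe of their own, 4 (miR-199b*, miR-486*, miR-3107* and miR-669p*) have a guide that is named only on a probe shared by several miRNAs.

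The study profiled miRNAs by single-colour arrays in a mouse model in which fatty liver disease progresses to cancer. STAM mice, on a C57BL6 background, receive streptozotocin, which kills insulin-producing cells, and a high-fat diet, and carry hepatocellular carcinoma (HCC) at 18 weeks of age per the labels. The 6 arrays hold 3 HCC samples, 2 samples of liver outside the tumour of such mice (NT) and 1 normal liver of a C57BL6 mouse labelled as control. The labels give no sex, and no age for the control. They do not say whether samples, among them HCC 2-1 and HCC 2-2, came from separate animals, so every p-value measures only the spread between these samples, which may be technical.

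A miRNA hairpin is cut by Dicer into a short duplex. One strand, the guide, is loaded into an Argonaute protein and pairs with target mRNAs through its seed, bases 2 to 8, while the other, the passenger, is usually degraded. Which arm is called the star reflected the read counts known when the name was given, and for some hairpins both strands accumulate, or the preferred strand changes with the tissue. In liver, miR-122 is the miRNA that defines hepatocytes, miR-192 and miR-194 are made from shared transcripts, and miR-21 is known to rise in fibrosis and cancer.

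Of the 326 star miRNAs, 229 were matched to a mature mouse miRNA of RefSeq (build GRCm38.p6), 215 of them together with their guide. The 7 pairs printed first have star probes among the brightest and show the G-rich stars of the results on brightness; miR-677*, an eighth bright star with a sequence and 34.6% G, is not printed. Each sequence reads 5′ to 3′, with the seed in capitals, star first and guide second.
miR-326*: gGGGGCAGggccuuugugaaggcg
miR-326: cCUCUGGGcccuuccuccagu
miR-3102*: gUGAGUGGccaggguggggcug
miR-3102: gAGCACCCcauuggcuacccaca
miR-92b*: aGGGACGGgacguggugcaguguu
miR-92b: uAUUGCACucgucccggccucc
miR-3090*: gUCUGGGUggggccugagauc
miR-3090: uCCCAGGUgacacccugacuca
miR-211*: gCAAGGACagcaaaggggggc
miR-211: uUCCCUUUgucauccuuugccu
miR-3077*: cUGCGGACgggugggcgggcaggcc
miR-3077: cUGACUCCcugcuucuccgcag
miR-3072*: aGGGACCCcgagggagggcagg
miR-3072: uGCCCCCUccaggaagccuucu
These stars lie on GRCm38.p6 as follows: miR-326* at chr7:99552288-99552311 (plus strand), miR-3102* at chr7:100882388-100882409 (minus strand), miR-92b* at chr3:89227165-89227188 (minus strand), miR-3090* at chr2:133564722-133564742 (plus strand), miR-211* at chr7:64205868-64205888 (plus strand), miR-3077* at chr14:57798424-57798448 (plus strand) and miR-3072* at chr12:109747893-109747914 (plus strand). By the RefSeq gene spans, miR-326 lies within Arrb1, miR-3102 within Arhgef17, miR-211 within Trpm1, miR-3077 within Sap18 and miR-3072 within Mirg, the long noncoding RNA of the imprinted Dlk1-Dio3 region.

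The second set shows hairpins with a liver role for which both arms were measured. The stars of miR-30a and miR-30e carry the same seed, UUUCAGU, and their guides share another, GUAAACA. The stars of the 2 miR-194 hairpins have the seeds CAGUGGA and CAGUGGG, whereas both hairpins give the same guide.
miR-192*: cUGCCAAUuccauaggucacag
miR-192: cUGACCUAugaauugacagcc
miR-194-1*: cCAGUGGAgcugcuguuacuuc
miR-194-2*: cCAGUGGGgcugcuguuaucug
miR-194: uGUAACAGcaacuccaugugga
miR-30a*: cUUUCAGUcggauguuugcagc
miR-30e*: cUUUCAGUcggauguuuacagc
miR-30a: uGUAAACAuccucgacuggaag
miR-30e: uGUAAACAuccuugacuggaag
miR-21*: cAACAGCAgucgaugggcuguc
miR-21: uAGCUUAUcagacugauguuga
These stars lie as follows: miR-192* at chr19:6264900-6264921 (plus strand), miR-194-1* at chr1:185313360-185313381 (plus strand), miR-194-2* at chr19:6264694-6264715 (plus strand), miR-30a* at chr1:23272315-23272336 (plus strand), miR-30e* at chr4:120772618-120772639 (minus strand) and miR-21* at chr11:86584082-86584103 (minus strand). By the RefSeq gene spans, miR-194-1 lies within Iars2, miR-30e within Nfyc and miR-21 within Vmp1.

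Star probes were detected less often than their guides. Detection required a spot brighter than the blank spots of its array, by more than 2 SD over their mean. By that rule 144 of 326 star probes (44.2%) were above background on at least 2 of 6 arrays, against 196 of 295 guide probes (66.4%), and 44 star probes (13.5%) against 117 guide probes (39.7%) on all 6. The viral miRNA probes, which have no target of the mouse by name, gave 20 of 39 (51.3%) on at least 2 arrays and 8 (20.5%) on all 6. The share of star probes above background was thus below that of probes for viral miRNAs by this rule, and with a limit of 3 SD only 79 star probes were above background on at least 2 arrays. For 106 star probes (32.5%) no array was above background, which is not shown to be absence at this sensitivity.

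By array, 80 star probes were above background in normal liver, 110 in NT 1, 106 in NT 2, 108 in HCC 1, 126 in HCC 2-1 and 128 in HCC 2-2. The order followed that of all mouse probes at both ends, with 403 of 1096 above background in normal liver and 540 in HCC 2-2. The share of the summed mouse signal held by star probes was 3.12% in normal liver, 3.58% in NT 1, 5.00% in NT 2, 4.74% in HCC 1, 5.01% in HCC 2-1 and 5.93% in HCC 2-2. Normal liver and NT 1 shared 1 chip and had the lowest shares, and NT 2 shared a chip with HCC 1 and had a share inside the range of the HCC samples. All 5 hepatocyte markers, miR-122, miR-192, miR-194, miR-148a and miR-101a, were above background on all 6 arrays. Of the markers of muscle, pancreas and nerve, miR-133a, miR-217, miR-124 and miR-9 were so on none, miR-1a, miR-206 and miR-216a on 1 and miR-375 on 3. The scanner gain was 38 on the normal and both NT arrays, 41 on HCC 1 and 39 on the other HCC arrays, and what is due to gain and what to tumour tissue cannot be told apart.

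**Figure D1:**
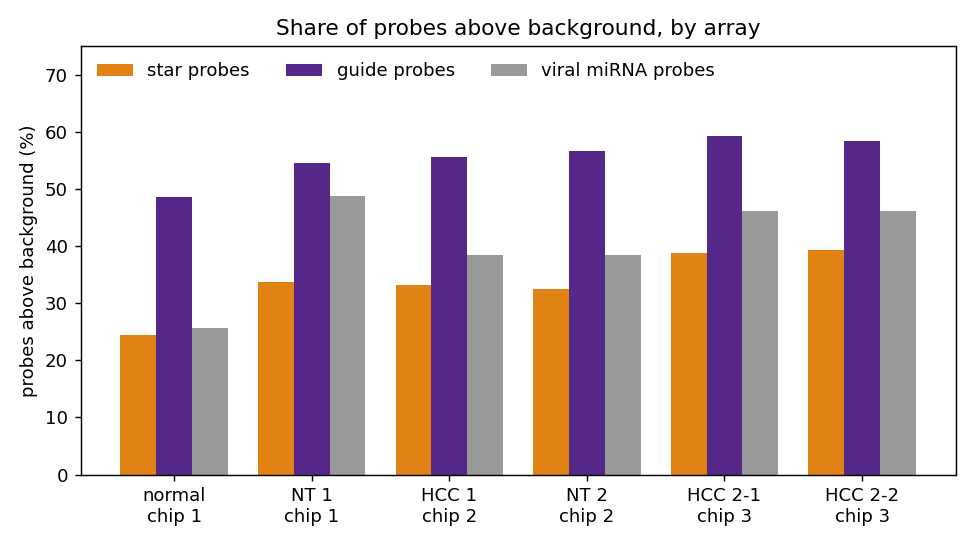
Bars give the share of probes above background in percent on each of the 6 arrays, for 326 star probes, 295 guide probes and 39 viral miRNA probes. Guide probes stand above star probes on every array, and each class is lowest on the normal array.

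Pair by pair, the guide was the arm detected more often. Of 317 pairs, 108 had both arms above background on at least 2 arrays, 106 the guide alone, 30 the star alone and 73 neither. The guide was above background on more arrays than its star in 189 pairs, the star on more arrays in 67, and both on equally many in 61. In 55 pairs the guide was above background on all 6 arrays while the star reached that level on at most 1; examples are miR-18a* and miR-145*, which were above background on no array, and miR-34a* and miR-223*, which were above background on 1.

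The reverse pattern, a star on all 6 arrays beside a guide on at most 1, was found in 8 pairs: miR-204*, miR-211*, miR-3065*, miR-3077*, miR-3087*, miR-504*, miR-677* and miR-7b*. The guide probes of miR-204, miR-211, miR-3087, miR-677 and miR-7b were above background on no array, and those of miR-3065, miR-3077 and miR-504 on 1 each. Several of these stars were dim. Mean signals over the blank spots were 13.5 for miR-204*, 14.5 for miR-3087* and 5.36 for miR-7b*. The viral probes above background on all 6 arrays had a median of 12.1. On no array did miR-504* exceed 15.8 or miR-3065* 7.36. The signals of miR-211*, miR-3077* and miR-677* were 138, 131 and 59.7. miR-211* had a normalized log2 intensity of 7.05 in normal liver, at 7.26 and 7.60 in the NT samples, and at 7.36, 7.71 and 7.79 in the HCC samples. On this scale the star probes that were above background on no array had medians between 5.74 and 5.78. The guide of miR-211, known from pigment cells, stayed between 5.74 and 5.78 on the 6 arrays, where undetected probes lie.

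Most detected stars were dim. Only 10 of the 144 tested star probes had a mean signal of at least 50 intensity units over the blanks, and these 10 held between 59.7% and 75.2% of the summed star signal of an array. They were miR-328*, miR-326*, miR-3102*, miR-122*, miR-92b*, miR-3090*, miR-211*, miR-3077*, miR-3072* and miR-677*. The other 134 tested star probes lie where the correction offset of 50 compresses differences toward 0. Both arms reached 50 units in only 2 pairs, those of miR-122 and miR-3072.

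The bright stars with a matched sequence were rich in G. No sequence was matched for miR-328* and miR-122*, so their G content is not covered here. Among the 8 of those 10 stars with a RefSeq sequence, the median G content was 52.1% and the median GC content 68.8%, whereas the guides of the same 8 hairpins had a median G content of 18.2%. For the 32 matched stars above background on all 6 arrays the median G content was 34.0%, and for the 75 above background on no array it was 22.7%. The 4-base run GGGG, searched on the mature strand, stood in 24 of 229 matched stars, of which 10 (41.7%) were above background on all 6 arrays. Of the 205 stars without it, 22 (10.7%) were. Over all 1679 mature mouse miRNAs of the RefSeq table, 188 (11.2%) hold GGGG. These are descriptions over probes of the same 6 arrays, and the part of base composition in the signal was not tested.

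**Figure D2:**
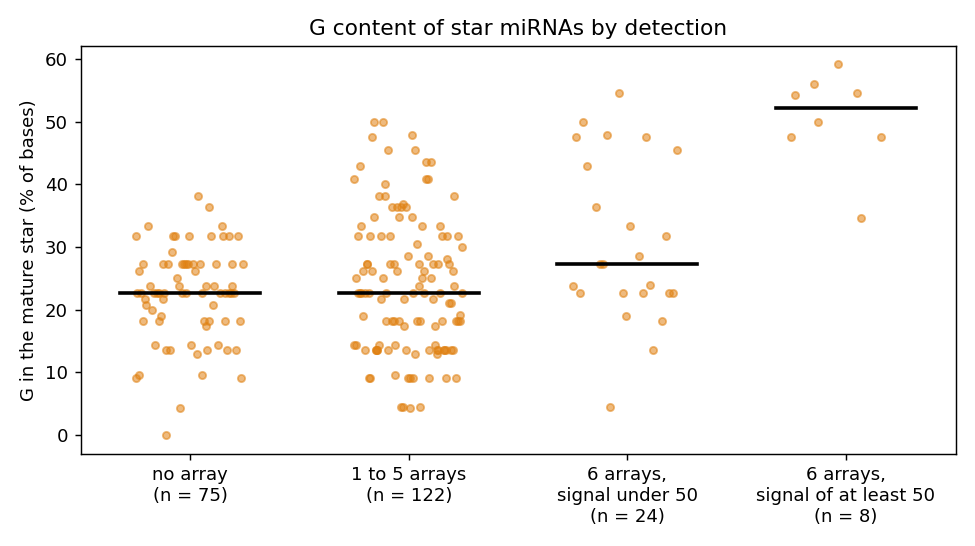
Each point is a matched star miRNA, with its G content in percent of bases on the y axis and its detection class on the x axis; lines are medians. The 8 stars with a signal of at least 50 have a median of 52.1% G, and the 75 above background on no array one of 22.7%.

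In no comparison did a star probe pass an adjusted p of 0.05 in limma. Between HCC and NT, 0 of 144 tested star probes were called, beside 0% of all 613 tested probes; 10 star probes, 5 in each direction, had an unadjusted p under 0.05, or 6.94% against 9.14% of all probes. Between NT and normal liver 0 were called, beside 0.163% of all probes, with 17 (11.8%, against 12.6% of all probes) under 0.05 before adjustment, and between HCC and normal liver 0 were called, beside 0.163%, with 18 (12.5%, against 16.2%). The median log2 difference of the star probes was 0.0042 between HCC and NT, -0.0047 between NT and normal liver and 0.0084 between HCC and normal liver, and the medians over all probes were 0.0013, -0.0021 and 0.0055. The 3 comparisons share arrays: NT enters the first pair, and the single normal array enters the last pair, with a spread taken from the other groups.

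For 30 of 144 star probes (20.8%) the HCC and NT values did not overlap, beside 23.7% of all probes. For NT against normal liver the count was 99 (68.8%), beside 71.8%, and for HCC against normal liver 84 (58.3%), beside 63.8%. The star probes were thus at or below the share found over all probes in each comparison.

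Of the 10 stars with a signal of at least 50, 6 were lowest in normal liver on the normalized scale (miR-92b*, miR-326*, miR-3102*, miR-3090*, miR-211* and miR-3077*) and 1, miR-3072*, was highest there. The rank of miR-3072* depends on the normalization. By signal over the blanks it was at 87.8 in normal liver, at 85.5 and 102 in NT 1 and NT 2, and at 178, 152 and 177 in HCC. Normal liver was the lowest array for 33 of all 144 tested star probes (22.9%) and for 57 of 196 tested guide probes (29.1%). miR-92b*, the passenger of an oncogenic miR-25 family member, was at 6.86 in normal liver, at 7.59 and 8.25 in the NT samples, and at 8.66, 8.17 and 8.83 in the HCC samples. HCC lay above normal liver by 1.69 on the log2 scale (SE 0.36, a 3.23-fold difference, limma adjusted p = 0.18), with every HCC array above the normal one, while HCC and NT overlapped (difference 0.63, SE 0.29, adjusted p = 0.61). Over the alternative settings its adjusted p for HCC minus normal ran from 0.010 to 0.68, and it passed the threshold with a trended prior and in the authors' processed values. The guide miR-92b differed by -0.08 in the same comparison.

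miR-326*, from the hairpin inside the arrestin gene Arrb1, was at 7.83 in normal liver, at 8.03 and 8.97 in the NT samples, and at 9.02, 8.97 and 9.24 in the HCC samples. miR-3102* was at 7.57 in normal liver, at 8.29 and 8.92 in the NT samples, and at 8.29, 8.77 and 8.78 in the HCC samples. miR-3090* was at 6.90 in normal liver, at 7.64 and 8.17 in the NT samples, and at 7.48, 8.01 and 8.01 in the HCC samples. In all of them normal liver was the lowest array, and NT 2 lay at the lower end of the HCC range for miR-326* and above every HCC array for miR-3102* and miR-3090*. HCC minus normal was 1.25 for miR-326* (SE 0.37, adjusted p = 0.26), 1.05 for miR-3102* (SE 0.32, adjusted p = 0.26) and 0.94 for miR-3090* (SE 0.31, adjusted p = 0.29), all short of the threshold.

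Some bright stars also followed the chip. Of the 10, 4 (miR-92b*, miR-326*, miR-211* and miR-3077*) were lower on both arrays of chip 1, normal liver and NT 1, than on every array of the other chips. Within chip 2, HCC 1 minus NT 2 was 0.06 for miR-326*, -0.62 for miR-3102* and -0.69 for miR-3090*, against 0.41 for miR-92b*. In a fit with a chip term, the difference between HCC and normal liver was 0.26 for miR-326*, 0.11 for miR-3102*, 0.06 for miR-3090*, -0.02 for miR-211*, -0.07 for miR-3077* and 1.13 for miR-92b*. No chip held both HCC and normal liver, so this value is HCC 1 minus NT 2 plus NT 1 minus normal. HCC 2-1 and HCC 2-2, alone on chip 3, do not enter it. The part of the chip in these differences was not tested. Across the 99 tested stars with a sequence, the difference HCC minus NT went with G content with r = 0.39, and the difference within chip 2, of 1 array against 1, with r = -0.07. For HCC minus normal r was 0.39, and 0.11 in the fit with a chip term, again without HCC 2-1 and HCC 2-2. For NT minus normal r was 0.30, and 0.19 within chip 1, again of 1 array against 1. These points share arrays and normalization, and no p is given.

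**Figure D3:**
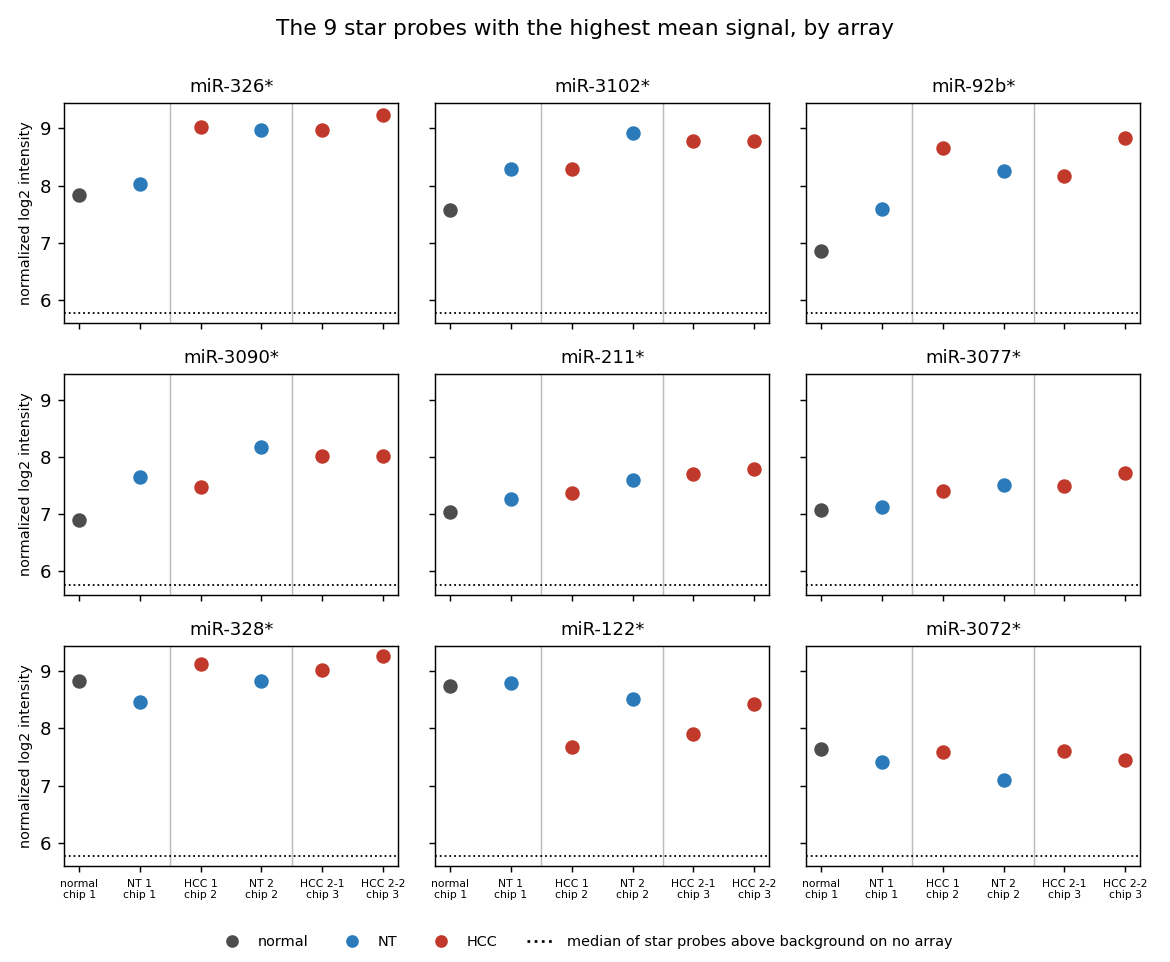
Points give the normalized log2 intensity of the 9 star probes with the highest mean signal on each array, ordered by chip, with vertical lines between chips and colours for the groups; the dotted line is the level of star probes above background on no array. miR-92b* and miR-326* are lowest on the arrays of chip 1, while miR-122* is lowest in HCC 1 and HCC 2-1.

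miR-328*, the brightest star by mean signal, was at 8.83 in normal liver, at 8.46 and 8.83 in the NT samples, and at 9.12, 9.02 and 9.27 in the HCC samples. The HCC arrays lay above both NT arrays, by 0.49 (SE 0.13, a 1.41-fold difference, limma adjusted p = 0.47), and the difference within chip 2 was 0.29. Its guide miR-328 differed by 0.02 in the same comparison. miR-3067* was also higher in HCC without overlap, by 0.29 (SE 0.07, adjusted p = 0.45), as was miR-365-1*, whose guide is known in brown fat, by 0.24 (SE 0.06, adjusted p = 0.47), and miR-204*, by 0.17 (SE 0.06, adjusted p = 0.54). miR-3067* was not above background in normal liver, and HCC lay at least 1.25-fold above the background there (adjusted p = 0.24).

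miR-122*, the passenger of the hepatocyte miRNA, was at 8.74 in normal liver, at 8.80 and 8.52 in the NT samples, and at 7.68, 7.91 and 8.42 in the HCC samples. On this normalized scale the HCC arrays lay below all others, with HCC minus NT at -0.65 (SE 0.25, adjusted p = 0.54). The within-chip difference was -0.84. Before normalization, by signal over the blanks, HCC 2-2 was instead the brightest array at 433. HCC 1 (181) and HCC 2-1 (210) were the dimmest, and the non-HCC arrays ranged from 267 to 313. The separation of all HCC arrays thus depends on the normalization. Over 18 alternatives HCC minus NT kept its sign, running from -0.87 to -0.24. The normalized values of the guide miR-122 overlapped between the groups. They were 12.38 in normal liver, 12.65 and 12.38 in the NT samples, and 11.61, 12.38 and 12.65 in the HCC samples. These values repeat because quantile normalization gives each of the brightest probes the mean of its rank. They show the rank of miR-122 and cannot show whether its level differed. Star minus guide was lower in HCC than in NT by 0.35 on the log2 scale (limma adjusted p = 0.46); under median scaling this difference was 0.18 and in the authors' processed values 0.13, so its direction depends on the scaling.

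Of the other liver stars, miR-192*, miR-30e* and miR-30a* had lower values in HCC than in normal liver, short of the threshold. miR-192* was at 6.39 in normal liver, at 6.21 and 6.03 in the NT samples, and at 5.98, 6.04 and 6.10 in the HCC samples. Normal liver was the highest array, HCC minus normal was -0.36 (SE 0.09, adjusted p = 0.20), and the guide miR-192 differed by -0.78 (SE 0.16, adjusted p = 0.18). miR-30e*, of the family that limits hepatic fibrosis, was at 6.76 in normal liver, at 6.49 and 6.30 in the NT samples, and at 6.36, 6.43 and 6.36 in the HCC samples. Its difference HCC minus normal was -0.38 (SE 0.09, adjusted p = 0.18) beside -0.40 for miR-30e, while miR-30a* differed by -0.27 (SE 0.09, adjusted p = 0.30) beside -1.01 for miR-30a. The star minus guide value of miR-30a was thus higher by 0.74 in HCC than in normal liver (SE 0.17, adjusted p = 0.096), and passed the threshold with a trended and robust prior. Under median scaling the differences of miR-30e* and miR-30a* were 0.04 and 0.12. miR-22*, above background on all arrays, overlapped between HCC and NT at -0.10 (adjusted p = 0.89). Of the 20 hepatocyte-linked star probes, 15 were tested and 0 called in any comparison; 6 were higher and 9 lower in HCC than in NT, with a median of -0.02 beside 0.0013 over all probes.

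Among stars of stromal and blood cell miRNAs, miR-199b* had its highest normalized values in NT. This star, from a hairpin known in stellate cells, was at 6.06 in normal liver, at 6.24 and 6.39 in the NT samples, and at 6.06, 6.07 and 6.11 in the HCC samples. On this scale both NT arrays lay above all others, with NT minus normal at 0.25 (SE 0.07, adjusted p = 0.33) and HCC minus NT at -0.23 (SE 0.05, adjusted p = 0.42). By signal over the blanks NT 2 was brightest at 33.9, but NT 1 (16.5) lay below HCC 2-2 (20.8). The separation of both NT arrays thus depends on the normalization. Over 18 alternatives HCC minus NT kept its sign, running from -0.91 to -0.15. The common guide probe of miR-199a-3p and miR-199b also had both NT arrays above all others in normalized values. It was at 6.53 in normal liver, at 7.31 and 7.36 in the NT samples, and at 6.66, 6.68 and 6.86 in the HCC samples. Outside that list, miR-322*, whose guide belongs to the miR-15 group that restrains the cell cycle, was at 5.81 in normal liver, 6.06 in both NT arrays, and 5.94 ± 0.06 (SD, n = 3) in HCC (NT minus normal 0.25, SE 0.06, adjusted p = 0.30). Fewer cells of a type and less RNA per cell cannot be told apart in these bulk samples. Of 18 stromal, leukocyte and endothelial stars, 10 were tested and 0 called; 6 were higher and 4 lower in NT than in normal liver. The red cell guide miR-451 was at 6.32 in normal liver against 8.80 to 9.17 on all other arrays, and its part in these differences was not tested.

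The remaining lists were mostly undetected. Of 10 let-7 stars, passengers of a tumour-suppressing family, 3 were tested, and of 32 stars of the Dlk1-Dio3 cluster, an imprinted miRNA cluster, 7 were tested and 15 were above background on no array. Of 14 stars of the clusters of miR-17 and its paralogues, which promote proliferation, 6 were tested, of 14 Sfmbt2 cluster stars 9, of 12 epithelial stars 2, of 10 miR-30 and miR-29 family stars 7, and of 17 cell cycle and p53-linked stars 7. None of these lists had a called member in any comparison, and their medians for HCC minus NT lay between -0.08 and 0.03. Outside these lists, miR-128-1* was higher in HCC than in normal liver by 0.16 (SE 0.03, adjusted p = 0.18; at least 1.12-fold above the background there).

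Whether a star and its guide differed by the same amount between groups was tested on the star minus guide log2 value of each array. The fit took 149 arm pairs, of which 108 were star and guide pairs of the probes described here. No such pair was called between HCC and NT, beside 0% of all pairs, with 15 under an unadjusted p of 0.05 (13.9%, against 13.4% of all pairs). Of those 15, 14 had the star higher relative to its guide in HCC, beside 17 of 20 among all arm pairs, which include them. Of the 25 guide probes under 0.05, 21 were lower in HCC. Across the 108 pairs the star minus guide difference went with the guide difference with r = -0.75 and with the star difference with r = 0.56. The pair value is made of both, so these correlations are partly built in. Whether the pair value follows the guide more where the star is dim and compressed was not tested. Between NT and normal liver 0 were called (0% of all pairs), with 19 under 0.05 (17.6%, against 18.1%), and between HCC and normal liver 0 (0% of all pairs), with 28 (25.9%, against 23.5%). The HCC and NT values did not overlap for 30 of 108 pairs (27.8%), beside 24.8% of all pairs; the share was 80.6% beside 79.2% between NT and normal liver and 73.1% beside 71.8% between HCC and normal liver.

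Star and guide differences went together only weakly. Across the 108 pairs the correlation of star with guide differences was r = 0.12 between HCC and NT, 0.19 between NT and normal liver and 0.12 between HCC and normal liver, and 63, 62 and 54 pairs had the same sign. For 39 pairs named 5p and 3p instead of star, r was 0.59, 0.23 and -0.04. The points share arrays and normalization, some share a guide, and dim stars are compressed: the median size of the star differences was 0.04 and of the guide differences 0.06 for HCC minus NT. In 76 of 108 pairs the guide had the larger absolute difference in that comparison.

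**Figure D4:**
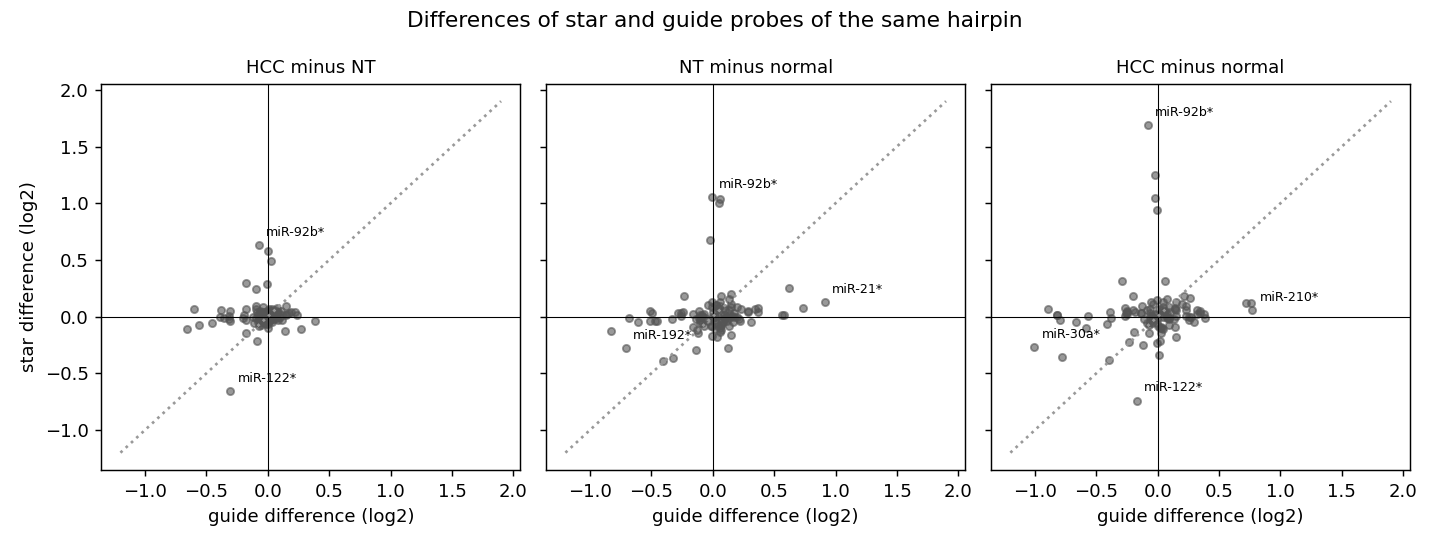
Each point is 1 of 108 pairs, with the log2 difference of the guide probe on the x axis and that of the star probe on the y axis for each comparison; the dotted line marks equal differences. Most points lie along the horizontal axis, and miR-92b* stands above the rest for HCC minus normal, where its guide differed by -0.08.

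Both of the 2 pairs with both arms bright set the HCC arrays apart from all others in normalized star minus guide. The HCC arrays lay above the others for miR-3072 and below them for miR-122, whose direction depended on the scaling, as given above. The star of miR-3072 was at 7.64 in normal liver, at 7.41 and 7.09 in the NT samples, and at 7.59, 7.60 and 7.45 in the HCC samples. By signal over the blanks this star was instead brightest on the HCC arrays (178, 152 and 177), against 87.8 in normal liver. The guide of miR-3072 was at 7.61 in normal liver, at 7.36 and 7.05 in the NT samples, and at 7.17, 7.03 and 6.89 in the HCC samples. Star minus guide of miR-3072 was 0.03 in normal liver, 0.05 in both NT arrays, and 0.42, 0.57 and 0.56 in HCC. The zero point of this value depends on the brightness of the probes, and only its differences between arrays can be read. It was higher in HCC by 0.47 than in NT (SE 0.07, limma adjusted p = 0.058) and by 0.48 than in normal liver (SE 0.09, adjusted p = 0.066), while NT and normal liver differed by 0.01 (SE 0.09, adjusted p = 0.93). Against NT the value ran from 0.37 to 0.75 and the adjusted p from 0.00097 to 0.52 over 18 alternatives, 2 of which passed the threshold. Without HCC replicate 1 the adjusted p was 0.040.

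For miR-26a and miR-21 the guide carried most of the difference. miR-26a-2* was near the background on every array, between 5.71 and 5.84, and above it only on HCC 2-1 and HCC 2-2, while miR-26a, a repressor of cell cycle genes, was at 9.66 and 9.54 in NT and 8.80, 9.12 and 9.08 in HCC. Star minus guide differed by 0.67 between HCC and NT (SE 0.09, limma adjusted p = 0.058), and by 0.38 under median scaling (adjusted p = 0.58). This pair passed the detection filter only through those HCC arrays. With the star near the background, its p is mainly that of the guide's difference and no test of the star. The threshold was passed in 3 alternatives, among them the fit without HCC replicate 1 (adjusted p = 0.040). For miR-21, NT minus normal was 0.91 for the guide and 0.13 for the star, so that star minus guide was -0.78 (SE 0.20, limma adjusted p = 0.25); with the blank level subtracted instead, it was 0.13. miR-21* was not above background in normal liver.

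Both miR-194 stars also stayed near the background while their common guide was highest in normal liver. miR-194 was at 10.25 in normal liver, at 9.88 and 9.60 in the NT samples, and at 9.24, 9.47 and 9.60 in the HCC samples, and star minus guide was higher in HCC than in normal liver by 0.83 for miR-194-1* (SE 0.12, adjusted p = 0.066) and 0.83 for miR-194-2* (SE 0.13, adjusted p = 0.066). miR-194-1* was not above background in normal liver. These are not separate observations, since both use the same guide probe. Median scaling, which cancels within a pair, gave -0.08 for both, and cyclic loess gave 0.60 and 0.59, so the direction depends on the normalization. For miR-210, the hypoxia-induced miRNA, star minus guide was lower in HCC than in normal liver by 0.71 on the log2 scale (SE 0.22, adjusted p = 0.12; the threshold was passed in 3 of 16 alternatives, among them the authors' processed values at -2.85), with the guide at 5.93 in normal liver and between 6.45 and 7.03 elsewhere. miR-210* was not above background in normal liver, so only the guide was measured on both sides of this difference.

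**Figure D5:**
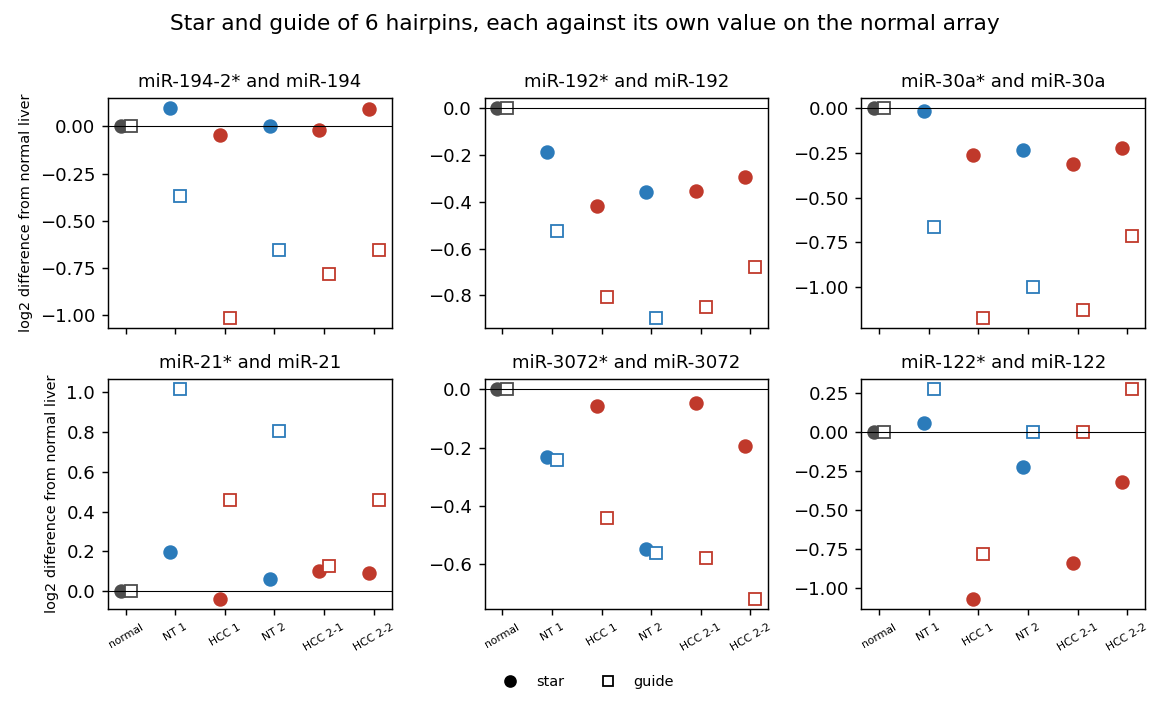
For 6 hairpins, filled circles give the star and open squares the guide on each array as a log2 difference from the value of the same probe on the normal array, coloured by group. For miR-3072 star and guide lie together in NT and apart in HCC, and for miR-194 the guide is lower on every other array while the star stays near 0.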

How the data were processed

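Total RNA was labelled with Hy5 per the labels' protocols and hybridised, per the file headers, to mouse miRNA chips made by Toray (design 17), 2 arrays on each of 3 chips. The deposited scanner files hold the raw intensity of each spot and its local background, with no normalization recorded per the file headers. The authors also deposited processed intensity values, with a median of 25 on each array, used here as an alternative; how the background was set was not stated in the sources at hand.

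Intensities were corrected by normexp (offset 50), put on the log2 scale and quantile normalized over 1095 mouse probes, with limma 3.58.1 in R 4.3.3. Blank spots (1818), without the highest and lowest 5%, set the background level. The 613 probes above background on at least 2 arrays entered a 3-group limma model (2-sided test, Benjamini-Hochberg at 0.05); 149 arm pairs, 5p and 3p pairs included, entered the same model as star minus guide values. Each group's scatter enters 1 shared spread with 3 residual degrees of freedom. A bound is the mean of the bright group over, for the dim array, its own value or the lowest value of any detected probe, whichever is higher.

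For each comparison, the 5 stars per direction and 3 pairs per direction with the smallest p could be named, with the 12 brightest stars, stars on 6 arrays without guide, and a list of liver miRNAs. The members, lists and rules were chosen with earlier results of these data known. Of the 229 sequence matches, 44 rest on a copy name, 51 on the order of miRNA accessions in the files and 134 on the known arm of the star, which the files do not state. Tested on simulated data for HCC minus NT (613 probes), the fit recovered 97 of 100 probes changed by 1 on the log2 scale. Of those changed by 2 it recovered 100 of 100, and 9 calls were false. Smaller changes, such as most star differences here, were not simulated. The many changed probes ease the adjustment, and the noise was that of the tested probes, most of them dim. Recovery of a bright star in these data thus cannot be read from this simulation. Star names follow an older miRBase release.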

Additional observations from a re-analysis of the deposited data

How the results depend on the processing

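The number of star probes called stayed at 0 in all comparisons under all alternatives run, except that 1, miR-92b*, was called for HCC minus normal in the authors' processed values and 1, again miR-92b*, with a trended and robust prior. The number of star and guide pairs called was less stable. For HCC minus NT it was 1 with an offset of 16, 1 with no filter, 3 in the authors' processed values and 4 with the trended and robust prior, and it ran from 0 to 2 when 1 array was left out in turn, with 2 without HCC replicate 1 and 1 without NT replicate 2. For NT minus normal it was 3 in the authors' processed values. For HCC minus normal it was 9 with an offset of 16, 2 under median and under upper-quartile scaling, 6 in the authors' processed values, 1 over probes above background on all 6 arrays and 10 with the trended and robust prior, and it ran from 0 to 1 when 1 array was left out, with 1 without NT replicate 1 and 1 without NT replicate 2. With fewer arrays in NT or HCC, a lone array is assumed to vary like the other groups.

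The medians lay close to 0 and their sign was not stable. For HCC minus NT the median star difference was 0.12 with the blank level subtracted, 0.011 with an offset of 16, 0.024 under median scaling, -0.022 under upper-quartile scaling, 0.00094 with cyclic loess, 0.0077 in the authors' processed values, 0.017 over probes on all 6 arrays, -0.0016 with no filter and 0.0031 at 3 SD; it ran from -0.00021 to 0.016 when 1 array was left out. For NT minus normal it was 0.059 with the blank level subtracted, -0.013 with an offset of 16, 0.026 and 0.0011 under median and upper-quartile scaling, -0.0067 with cyclic loess, 0.19 in the authors' processed values, -0.047 over probes on all 6 arrays, -0.0021 with no filter and -0.0021 at 3 SD, and it ran from -0.0047 to 0. For HCC minus normal it was 0.27, 0.020, 0.047, -0.024, 0.0029, 0.34 and -0.027 under the first 7 of these settings in the same order, 0.00038 with no filter, 0.027 at 3 SD and 0.0020 with the chip as a block, and it ran from 0.0037 to 0.015. In the authors' processed values the median over all probes was 0.33 for NT minus normal and 0.32 for HCC minus normal, and relative to it the stars stood at -0.14 and 0.017. With the blank level subtracted they stood above all probes by 0.10, 0.059 and 0.23 in the order HCC minus NT, NT minus normal and HCC minus normal. Over the 10 stars with a signal of at least 50, a setting chosen after seeing the data, the medians were 0.21, 0.31 and 0.52 in the order HCC minus NT, NT minus normal and HCC minus normal.

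The median star minus guide difference for HCC minus NT was 0.20 with the blank level subtracted, -0.036 under median and under upper-quartile scaling and 0.10 in the authors' processed values. For NT minus normal it was -0.078 under both scalings and -0.051 in the authors' processed values. For HCC minus normal it was 0.20 with the blank level subtracted, 0.023 with an offset of 16, -0.088 under both scalings, -0.066 in the authors' processed values and 0.038 with the chip as a block. Over the 2 pairs with both arms bright it was 0.060, -0.10 and -0.044. Leaving out 1 array gave ranges of 0.0043 to 0.023, -0.025 to -0.0036 and -0.0051 to 0.0052.

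Of 48 named stars and pairs, 14 changed sign under at least 1 alternative, none of which passed the threshold there. With the blank level subtracted, the reversed star minus guide values were -0.098 for let-7b* and 0.59 for miR-20b* (HCC minus NT), and -0.29 for miR-192*, 0.13 for miR-21* and 0.61 for miR-16-1* (NT minus normal). Under median and upper-quartile scaling alike they were -0.086 for let-7b* and 0.18 for miR-122* (HCC minus NT), and -0.084 for miR-194-1*, -0.084 for miR-194-2* and 0.023 for miR-346* (HCC minus normal). For miR-122* the value was 0.10 with cyclic loess and 0.13 in the authors' processed values, and for miR-192* (NT minus normal) -0.23 in the authors' values. For the stars themselves, miR-1249* gave 0.044, 0.019 and 0.20 for NT minus normal and 0.11, 0.042 and 0.13 for HCC minus normal under median scaling, upper-quartile scaling and in the authors' values. Under median scaling miR-30e*, miR-504* and miR-30a* gave 0.041, 0.032 and 0.12 for HCC minus normal, and miR-30a* 0.051 under upper-quartile scaling. The cause was not tested. Under median and upper-quartile scaling, subtraction within a pair cancels the scaling, so the pair values there are those of the intensities without normalization between arrays.

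The number of detected star probes was 79 at 3 SD, 220 when 1 array sufficed and 44 when all 6 were required; guides came to 117 on all 6. The labels share the numbers 1 and 2 between HCC and NT but do not say what they pair. The same-numbered samples deviated together with r = 0.16 across 613 probes. With the number as a replicate block the median star difference for HCC minus NT was 0.0060, and 0 stars and 0 pairs were called. Precision is limited by 3, 2 and 1 arrays per group and by the dim signals, of which 511 of 613 tested probes lay under 50 units over the blanks.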
